A study of Mus musculus with 10 samples.

Results

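Oxidative phosphorylation is the process by which mitochondria make most of the ATP of a cell. Of the proteins it needs, those of the nuclear-encoded subunits are described here by the mRNA of their genes in sorted mouse keratinocytes. The members were the loci whose gene symbol begins with Nduf, Sdha, Sdhb, Sdhc, Sdhd, Uqcr, Cox4 to Cox8 or Atp5, with pseudogene names ending in -ps left out. This name rule used no measured value. It found 85 of the 10583 loci that had the status OK in both deposited tables, and each of the 85 had a level in all 4 groups. They stand for 84 genes, since Sdhc has 2 loci. Grouped by name prefix alone, 44 loci fall under complex I, 7 under complex II, 8 under complex III, 11 under complex IV and 15 under complex V. By role, 74 are structural subunits, 9 are assembly factors (Ndufaf and Sdhaf names) and 2 are other proteins that carry the prefix (Cox7a2l and Atp5sl).

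RNA was sequenced from skin keratinocytes of FVB/N mice at postnatal day 4, sorted into basal and suprabasal cells. Per layer there were 3 wild type samples and 2 samples of mice labelled bitransgenic HGPS, a model of Hutchinson-Gilford progeria in which, per the series title, the lamin A variant progerin accumulates. The labels name neither the transgenes, nor the promoter that drives them, nor any agent given, and they do not say whether samples were pooled from several animals. The titles have 6 stems, 4 of which occur in both layers, and p-values then measure only the spread between these samples, which may be technical.

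Complexes I and II take electrons from NADH and succinate, complex III passes them through cytochrome c to complex IV, which reduces oxygen, and complex V uses the resulting proton gradient to make ATP. All of these except complex II also hold a few subunits encoded in the mitochondrial genome, so nuclear and mitochondrial transcripts have to be matched. Complex I is the largest, with core subunits that carry the flavin and iron-sulfur clusters and many accessory subunits around them. In the epidermis, mitochondrial respiration is known to take part in keratinocyte differentiation.

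Every level is the authors' group value, 1 per group, read as FPKM (fragments per kilobase of transcript, scaled to the library size). Such a value carries no spread between samples, and sequencing depths were not analysed here. Pairs of levels are given as wild type, then bitransgenic. All levels, log2 fold changes (bitransgenic over wild type), p and q below are those of the authors' deposited tables, and ± is the standard error (SE) that the authors' p implies. A locus was called where the authors' q was under 0.05. That q is smaller than one made by the Benjamini-Hochberg method from the listed p: 186 basal and 54 suprabasal loci passed at the authors' q, and 63 and 47 after readjustment, and how the q was made is not given in the sources used here. Between the genotypes, the merged locus that holds Xist, the RNA of the inactive X chromosome, stood at 0.258 and 108 FPKM in basal cells and at 0.236 and 103 FPKM in suprabasal cells, so the mix of sexes differed and sex cannot be told apart from genotype. The layer labels were checked on the wild type groups: 10 basal keratinocyte markers summed to 18915 FPKM in basal and 8767 in suprabasal cells, and 12 suprabasal markers to 8737 and 18908. Most of the basal marker sum in basal cells comes from merged loci that also hold other keratin genes. Krt5 shares its locus with Krt2, Krt6b, Krt72, Krt76 and Krt8 (11677 FPKM), and Krt14 shares its locus with Krt16 (4375 FPKM). These loci are part of this sum wherever it is given. Of 9 melanocyte markers 4 were measured in basal cells, with sums of 10.7 and 19.1 FPKM. In suprabasal cells all 9 were, with sums of 2389 and 4334 FPKM. Of 11 skeletal muscle markers 2 were measured in basal and 1 in suprabasal cells, with sums of at most 11.2 FPKM, and no endothelial marker had a locus.

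No oxidative phosphorylation locus was called in either layer. In basal cells 0 of 85 had the authors' q under 0.05, against 1.65% of all 11290 loci, and the smallest q among them was 0.238. In suprabasal cells 0 of 85 passed, against 0.471% of 11464 loci, and the smallest q was 0.146. At an unadjusted p under 0.05, 1 member was lower and none higher in bitransgenic basal cells, and 7 were lower and none higher in bitransgenic suprabasal cells. The lower ones were 1.18% of members in basal and 8.24% in suprabasal cells, against 6.21% and 5.16% of all loci. Higher values at that p made up 1.47% of all basal and 1.95% of all suprabasal loci. When the authors' p was readjusted by the Benjamini-Hochberg method over all loci, the count of called members stayed at 0 in both layers. The 95% intervals given after the single genes say how large a difference the data still allow.

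In wild type basal cells the members spanned from 3.40 to 634 FPKM, with a median of 79.5 against 12.7 FPKM over all loci. FPKM is scaled by transcript length, and on that basis levels of different genes are set beside each other here. The limits from near-identical copies and overlapping genes given below apply, and the scaling of short transcripts was not tested. The median was 183 FPKM for complex IV, 148 for complex III, 113 for complex V, 69.9 for complex II and 63.7 for complex I. The highest member was Atp5b, the catalytic beta subunit of ATP synthase, with 634 and 781 FPKM in wild type and bitransgenic basal cells and 823 and 601 FPKM in suprabasal cells. Its partner Atp5a1, the alpha subunit, had 597 and 707 FPKM in basal cells. The highest member of complex III was the core protein Uqcrc1, with 475 and 476 FPKM in basal cells, and that of complex IV was Cox8a, with 406 and 428 FPKM. In complex I it was the accessory subunit Ndufa3, with 337 and 271 FPKM, and in complex II the membrane anchor Sdhd, with 87.3 and 76.1 FPKM. The 4 subunits of complex II lay close together in wild type basal cells: Sdhd at 87.3, the flavoprotein Sdha at 77.1, the iron-sulfur protein Sdhb at 75.8 and the other anchor Sdhc at 69.9 FPKM. Assembly factors, which build the complexes without being part of them, were lower: their 9 loci had a median of 5.56 FPKM, from 3.40 for Sdhaf1 and 3.42 for Ndufaf1 to 91.9 for Ndufaf2.

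**Figure D1:**
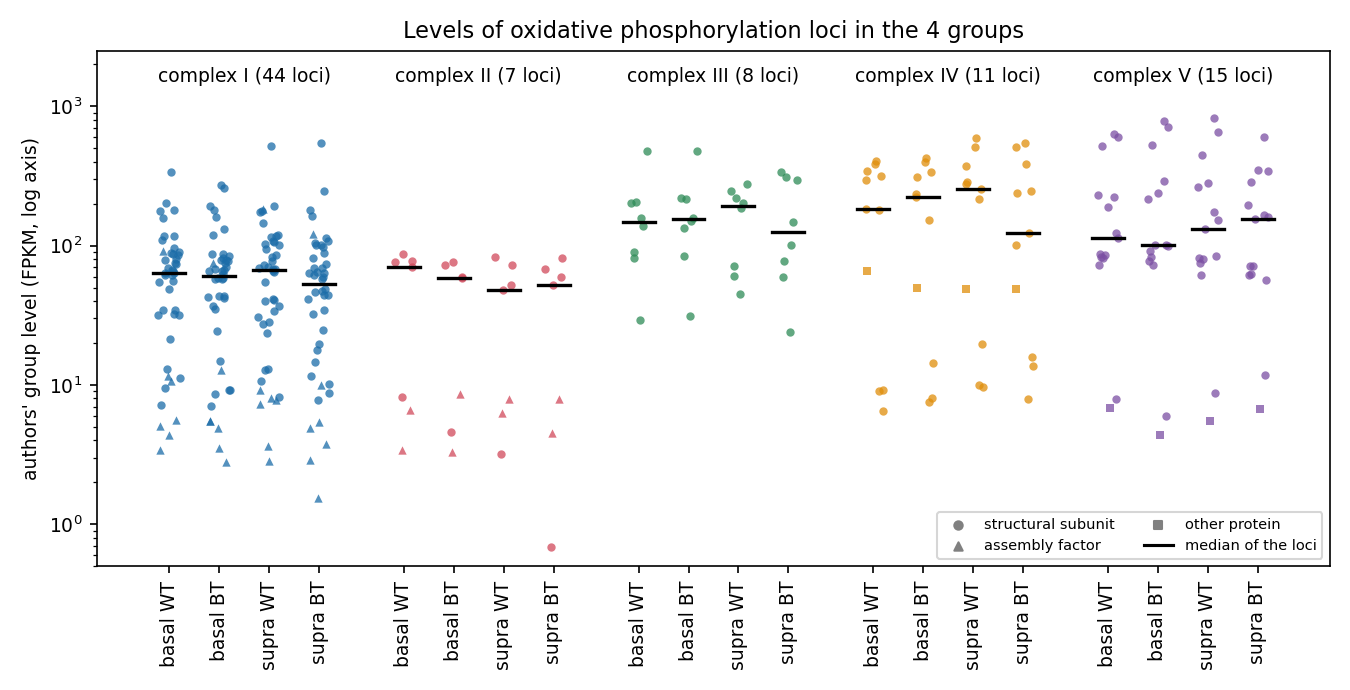
Authors' group level (FPKM, log axis) of each of the 85 loci in basal and suprabasal cells of wild type (WT) and bitransgenic (BT) mice, by complex. Circles are structural subunits, triangles assembly factors, squares other proteins, and black lines medians over loci; the range of levels within a complex is far wider than any shift between its 4 groups.

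Some subunits of a complex stood far below their partners in every group. In complex IV, Cox7c had 9.27 and Cox5b 9.0 FPKM in wild type basal cells, whereas Cox5a had 183 and Cox7a2 315. In complex V, Atp5l, the g subunit, had 7.88 FPKM against 191 for Atp5k, the e subunit. In complex I, the core subunit Ndufs3 had 9.52 FPKM against 80.5 for the core subunit Ndufs8. Levels of genes with near-identical copies are uncertain, since the counting could split reads between the copies. By alignment of the coding sequence to the GENCODE M21 transcripts, 20 members had at least 1 other gene that matched over at least 80% of its length at 95% identity or more. Atp5l had 8 such copies, Cox7c had 3, Ndufab1 had 2, and Cox5b and Ndufs3 had 1 each. Of the 9 structural subunits under 15 FPKM in wild type basal cells, 7 had such a copy or overlapped another coding gene. Among all 85 members 20 had a copy and 27 overlapped another coding gene, so nothing is read from these 7. The single member with 4 or more copies was Atp5l, and the 19 with 1 to 3 copies had a median of 83.0 FPKM against 79.5 for the 65 with none. Under 15 FPKM were 6 of these 19 and 11 of these 65. The part of shared reads in these levels was not tested.

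In basal cells the members lay close to 0. Their median log2 fold change was -0.03, with 46 of 85 below 0, while over all loci the median was -0.12 with 60.3% below 0. Of the 85, 72 (84.7%) had a log2 fold change within 0.5 of 0, against 64.2% of all loci and 74.1% of those with at least 20 FPKM. In bulk RNA, fewer cells of a type and less RNA per cell cannot be told apart, and this holds for every difference given here. The 10 basal keratinocyte markers summed to 18915 and 12145 FPKM in basal cells and the 12 suprabasal ones to 8737 and 10808. The basal marker sum rests on the merged loci with Krt5 (11677 and 6923 FPKM) and with Krt14 (4375 and 3926 FPKM). Of the 10 basal markers 9 were below 0, with a median log2 fold change of -0.39. Among them 1 was called, Krt15, with 1602 and 308 FPKM (-2.38 ± 0.71, the authors' q = 0.0371). The 12 suprabasal markers were split: 5 were below 0, 1 was called higher and 1 lower, and their median was 0.10. The part of these markers in the members' values was not tested.

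By complex, the basal medians were -0.10 for complex I (28 of 44 below 0), -0.20 for complex II (6 of 7), 0.09 for complex III (1 of 8), 0.04 for complex IV (5 of 11) and 0.03 for complex V (6 of 15). Among the core subunits, Ndufs7 had 157 and 119 FPKM (-0.41 ± 0.28) and the flavoprotein Sdha 77.1 and 59.8 (-0.37 ± 0.54), and neither passed. The NADH-binding Ndufv1 had 65.8 and 58.4 FPKM in wild type and bitransgenic basal cells (-0.17 ± 0.36), and its partner Ndufv2 had 86.9 and 86.9 FPKM. The iron-sulfur subunit Ndufs8 had 80.5 and 79.1 FPKM, and Ndufs1, the largest iron-sulfur subunit, 34.2 and 36.6. Sdhb had 75.8 and 72.4 FPKM (-0.07 ± 0.27). The Rieske iron-sulfur protein Uqcrfs1 had 29.1 and 31.2 FPKM and the core protein Uqcrc2 81.7 and 84.4. In complex V, Atp5b (0.30 ± 0.45), Atp5a1 (0.24 ± 0.37) and the central stalk subunit Atp5c1, with 223 and 289.6 FPKM (0.38 ± 0.27), all had the higher value in bitransgenic cells, and none of the 3 passed.

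Ndufb11, an accessory subunit of the complex I membrane arm, was the single basal member with the authors' p under 0.05 (chromosome X from 20615326 to 20650901 in mm10). It had 63.4 and 35.0 FPKM in wild type and bitransgenic basal cells (-0.86 ± 0.38, the authors' p = 0.0249, q = 0.238) but 40.1 and 46.4 in suprabasal cells (0.21 ± 0.43). Lower values at p under 0.05 made up 6.21% of all basal loci and higher values 1.47%. Ndufb11 is X-linked, as are Ndufa1, with 109 and 87.7 FPKM in basal cells, and Cox7b, with 295 and 234. All 3 were lower in bitransgenic basal cells while the 370 X-linked loci had a median of -0.01. The part of the sex difference in these values was not tested. The annotated gene of Ndufb11 also overlaps Rbm10 on the other strand, whose own locus had 6.02 and 5.64 FPKM. The deposited locus of Ndufb11 runs to 20650901, past the bound of the annotated gene at 20617619, and overlaps of that stretch were not tested. Ndufb11 also has 1 near-identical copy, as defined above.

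The lowest fold changes in basal cells among members with at least 5 FPKM were those of Ndufa4l2, Ndufaf6 and Ndufaf3, and none passed. Ndufa4l2, a paralogue of Ndufa4 known as a hypoxia-induced gene, had 32 and 9.21 FPKM (-1.80 ± 1.64, the authors' p = 0.273, q = 0.612). In suprabasal cells it had 36.8 and 8.72 FPKM (-2.08 ± 1.73, the authors' p = 0.23, q = 0.84). Its level was thus lower in bitransgenic cells in both layers, but its SE was wide beside the median SE of the members (0.36 in basal cells). By annotated extent Ndufa4l2 overlaps Shmt2 on the other strand. Its deposited locus runs to 127522444, past the annotated end of the gene at 127517154, and overlaps of that stretch were not tested. The paralogue Ndufa4 had 181 and 261 FPKM in basal cells (0.52 ± 0.28, the authors' p = 0.0635, q = 0.46). Ndufa4 is now counted with complex IV, but by their prefix both paralogues stand under complex I in the counts and medians given here. The assembly factor Ndufaf6 had 11.6 and 4.92 FPKM (-1.23 ± 0.96) and Ndufaf3 had 5.56 and 2.82 (-0.98 ± 0.81). The highest fold changes, none of which passed, were those of Ndufa12, an accessory subunit, with 12.9 and 24.5 FPKM (0.92 ± 0.65), of the assembly factor Ndufaf1 with 3.42 and 5.51, and of Cox7c with 9.27 and 14.5.

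In suprabasal cells the median of the members was near that of all loci, and the members with the smallest p all had the lower level in bitransgenic cells. The median log2 fold change was -0.11 with 51 of 85 below 0, against -0.08 and 56.6% below 0 over all loci. The medians were -0.12 for complex I (26 of 44 below 0), -0.01 for complex II (4 of 7), 0.03 for complex III (4 of 8), -0.27 for complex IV (8 of 11) and -0.08 for complex V (9 of 15). The 7 members with lower values at the authors' p under 0.05 were 8.24% of the 85, against 5.16% of all loci, and among loci with at least 20 FPKM they were 10.4% of 67 members against 6.79% of all. Higher values at that p made up 1.95% of all loci and none of the members. After each fold change was centred on the median of expressed loci (-0.08), 4 of the 7 kept a p under 0.05. The share of all loci at that p after centring is not given here, so nothing is read from these 4.

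The 7 members came from 4 complexes. Cox5a, a structural subunit of complex IV, had 278 and 101 FPKM in wild type and bitransgenic suprabasal cells (-1.47 ± 0.54, the authors' p = 0.00645, q = 0.146), the lowest q of all members. In basal cells it had 183 and 223 FPKM, the opposite direction (0.29 ± 0.30). Cox5b, of the same complex, had 10.1 and 7.95 FPKM in suprabasal cells (-0.34 ± 0.71). Cox6a1, also of complex IV, had 217 and 124 FPKM (-0.81 ± 0.36, the authors' p = 0.0238, q = 0.341). Of the other abundant complex IV subunits, Cox8a had 589 and 386 FPKM (-0.61 ± 0.40), whereas Cox6b1 had 511 and 544 (0.09 ± 0.33) and the X-linked Cox7b 370.2 and 512 (0.47 ± 0.48).

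In complex V, Atp5a1 had 653 and 344 FPKM (-0.92 ± 0.42, the authors' p = 0.0295, q = 0.387). Atp5b, which alternates with it in the catalytic head, had 823 and 601 FPKM (-0.45 ± 0.57), and Atp5c1 had 174 and 166. In complex III, Uqcrfs1 had 45.2 and 24.2 FPKM (-0.90 ± 0.42, the authors' p = 0.0319, q = 0.406) and the small subunit Uqcrq had 187 and 101 (-0.89 ± 0.45, the authors' p = 0.0471, q = 0.502). Uqcrh, the hinge protein of the same complex, had 219 and 308 FPKM, among the 3 highest fold changes (0.50 ± 0.37) with Ndufaf7 and Cox7c (9.66 and 13.6 FPKM), and Uqcrc1 had 276 and 294. In complex I, the core iron-sulfur subunit Ndufs7 had 144 and 81.5 FPKM (-0.82 ± 0.36, the authors' p = 0.0231, q = 0.335) and the accessory subunit Ndufa6 had 82.7 and 47.1 (-0.81 ± 0.39, the authors' p = 0.0358, q = 0.431). The members of 1 complex thus did not all go the same way. By their annotated extent, Atp5a1 overlaps Haus1 on the other strand and the other 6 overlap no coding gene; the deposited locus of Cox5a runs to 57543187, past the annotated end of the gene at 57532426, and overlaps of that stretch were not tested.

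NRF1, GABPA, YY1 and the ERR receptors are known to bind promoters of respiratory genes. RefSeq promoter windows of GRCm38.p6 (250 bases before to 50 after the start) were matched for 72 of the 84 member genes and searched on both strands for 4 cores. The core GCATGCGC of NRF1 stood in 11 of the 72 (15.3%), against 6.54% of 8101 genes of the tables. The core CCGGAAG of ETS factors, the family of GABPA, stood in 19 (26.4% against 22.2%). The core AAGATGGC of YY1 stood in 11 (15.3% against 5.95%), and the core AAGGTCA of ERR receptors in 7 (9.72% against 3.54%). A window counts under each core it holds, and 38 of the 72 (52.8%) held at least 1 of the 4, against 33.7%. A match is no evidence of binding, and these shares were not tested. Over all 27025 genes of the RefSeq table the shares were 3.05%, 9.93%, 3.19% and 5.38%.

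The stretches from 200 to 51 bases before the RefSeq start of 3 members with a p under 0.05 in suprabasal cells are printed because they differ in these cores: 2 hold the NRF1 core, in capitals, and Cox5a, the member with the lowest q, holds none of the 4 in its whole window. They lie in GRCm38.p6 at chr5:115349009-115349158, strand minus for Cox6a1, at chr15:82354342-82354491, strand minus for Ndufa6 and at chr9:57521032-57521181, strand plus for Cox5a.
Cox6a1: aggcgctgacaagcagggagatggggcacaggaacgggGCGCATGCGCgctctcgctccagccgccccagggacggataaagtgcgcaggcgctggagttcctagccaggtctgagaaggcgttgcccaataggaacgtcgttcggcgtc
Ndufa6: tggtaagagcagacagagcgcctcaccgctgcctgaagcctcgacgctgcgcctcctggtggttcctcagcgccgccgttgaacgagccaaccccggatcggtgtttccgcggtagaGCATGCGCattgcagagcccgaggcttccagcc
Cox5a: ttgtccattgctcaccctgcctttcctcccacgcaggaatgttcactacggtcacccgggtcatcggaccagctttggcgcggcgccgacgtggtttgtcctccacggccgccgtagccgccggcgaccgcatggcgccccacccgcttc
In Cox6a1 the core is found on both strands at overlapping positions, so the capitals run over 10 bases, and its window also holds the ETS core outside the stretch printed. The printed members were chosen by their p, and every member at that p in suprabasal cells was lower. Their direction therefore says nothing about the cores. Of the other members at that p, Ndufs7 held the YY1 core and Uqcrfs1 none of the cores, and Atp5a1 and Uqcrq had no matched window. The absence of a match says only that these letters are absent from the window.

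Cell type markers also differed between the suprabasal groups. The melanocyte sum was 2389 and 4334 FPKM, with all 9 markers higher in bitransgenic cells and 3 of them at the authors' p under 0.05 (Mlana, Tyrp1 and Kit). The 10 basal keratinocyte markers summed to 8767 and 4772 FPKM and the 12 suprabasal ones to 18908 and 14374. The fall of the latter sum comes from Krt10 (6574 and 2354 FPKM) and Krt1 (3419 and 1622 FPKM). The median log2 fold change of the 12 was 0.15, with 5 of them below 0. Their part in the lower suprabasal levels was not tested.

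**Figure D2:**
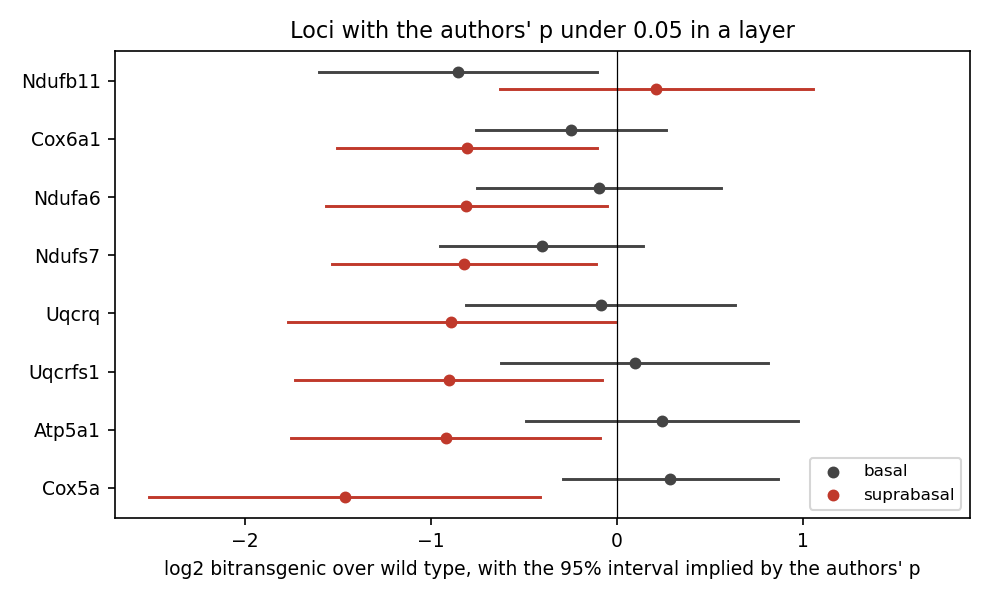
Log2 fold change (bitransgenic over wild type) of the 8 members with the authors' p under 0.05 in a layer, in basal (grey) and suprabasal (red) cells; bars are the 95% intervals implied by that p. The 7 suprabasal intervals that lie below 0 belong to loci whose basal interval includes 0, and the intervals of the layers overlap for every locus shown except Cox5a, where the basal one starts at -0.29 and the suprabasal one ends at -0.41.

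For 48 of the 85 members in basal cells the 95% interval of the log2 fold change lay wholly within 1 unit of 0, that is, within a 2-fold change. For all loci this share was 31.2%, against 56.5% of members. In suprabasal cells the count was 27 of 85, against 20.4% of all loci. Among loci with at least 20 FPKM the share was 69.1% of members against 50.1% of all in basal cells. In suprabasal cells it was 38.8% against 32.3%. Examples in basal cells are Cox6b1, with an interval from -0.46 to 0.54, Atp5g3 from -0.51 to 0.56 and Sdhb from -0.60 to 0.47. With the larger SE that the deposited test statistic gives, 10 basal members and 0 suprabasal members had such an interval. With that SE, 560 of all 11290 basal and 4 of all 11464 suprabasal loci had one. Among the assembly factors none did in either layer, so at their levels and SEs a 2-fold change could not be told from none.

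Whether the genotype difference itself differed between the layers was tested per locus, as the fold change in suprabasal cells less that in basal cells (log2). No member passed after Benjamini-Hochberg adjustment in this Wald z-test over 10579 testable loci, of which 4 passed (0.0378% of 10583). Cox7a2l could not be tested, because its suprabasal p of 1 gives no SE. At an unadjusted p under 0.05 there were 2 members with the lower suprabasal change, where 1.39% of all loci had one, and none with the higher, where 1.69% had one. They were, by the SEs from the authors' p, Cox5a (-1.75 ± 0.61, Wald z-test adjusted p = 0.94) and Atp5a1 (-1.16 ± 0.56, adjusted p = 0.9999). The median difference was -0.12 over the members and -0.01 over all loci, with 52 of 85 and 50.7% below 0. A lower suprabasal change was thus not shown for any single member. Across the 85 members the fold changes of the layers had a Pearson r of 0.32, and over all loci of 0.27; the layers share title stems, and members share libraries, so this is a description only. Of the 85 members, 29 were below 0 in both layers, 17 above 0 in both, 22 above 0 in basal and below 0 in suprabasal cells, and 17 the reverse. Over all 10583 loci, 39.4% were below 0 in both layers, and 19.1% were above 0 in basal and below 0 in suprabasal cells. Nothing is read from these counts.

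**Figure D3:**
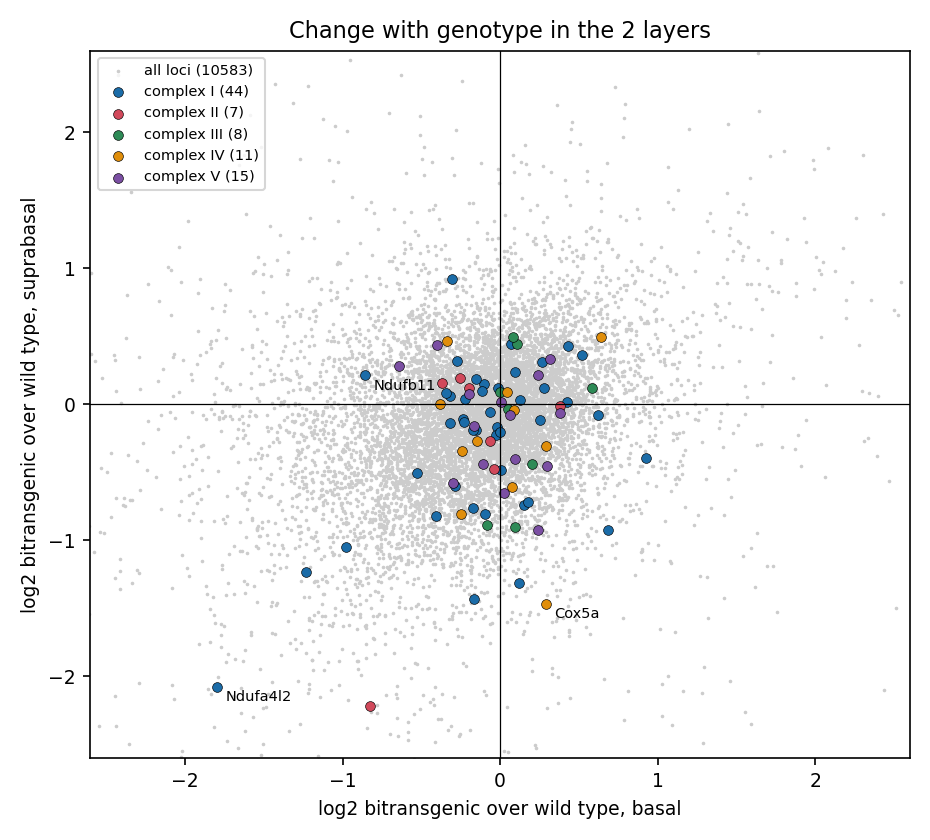
Log2 fold change (bitransgenic over wild type) in basal (x axis) against suprabasal cells (y axis) for the 85 members, coloured by complex, over all 10583 loci in grey; loci beyond the axes are not drawn. Most members lie near the origin, Cox5a lies low on the suprabasal axis alone, and Ndufa4l2 lies low on both.

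Between the layers, the wild type levels of most members were near each other. Each layer has a table scaled on its own and each group is 1 value, so these ratios carry no test. The median log2 ratio of the suprabasal over the basal level was 0.12 over the 85 members in wild type cells, with 51 above 0, against -0.04 and 47.2% above 0 over all loci. In bitransgenic cells it was -0.09 with 34 of 85 above 0, against -0.03 and 48.4%. In wild type cells the medians were 0.27 for complex IV, 0.16 for complex III, 0.13 for complex V, 0.09 for complex I and -0.09 for complex II. In bitransgenic cells the same medians were -0.09, -0.44, -0.33, -0.06 and -0.09. Each of them was thus below its wild type value, for complex II by less than the rounding. The difference between these ratios is the layer difference of the fold changes given above, and is no second line of evidence. Melanocyte markers, which stood higher in suprabasal cells by the sums given above, share these libraries, and their part in the ratios was not tested.

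The genes that differed most between the wild type layers were few. Cox6b2, known as a testis form of a complex IV subunit, had 6.53 FPKM in basal and 19.6 in suprabasal cells, a ratio of 3.0, and in bitransgenic cells 8.0 and 15.8. Its widely expressed partner Cox6b1 had 385 and 511 FPKM, a ratio of 1.33. The assembly factor Ndufaf1 had 3.42 and 9.27 FPKM, and Ndufaf2 91.9 and 184. Lower in the suprabasal layer was the accessory subunit Ndufb4, with 48.6 and 13.1 FPKM in wild type (a ratio of 0.270) and 43.2 and 7.74 in bitransgenic cells (a ratio of 0.179). Ndufaf6 had a ratio of 0.315 in both genotypes. In all, 7 of 85 members differed by more than 2-fold between the wild type layers (8.24%), against 14.4% of all loci.

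**Figure D4:**
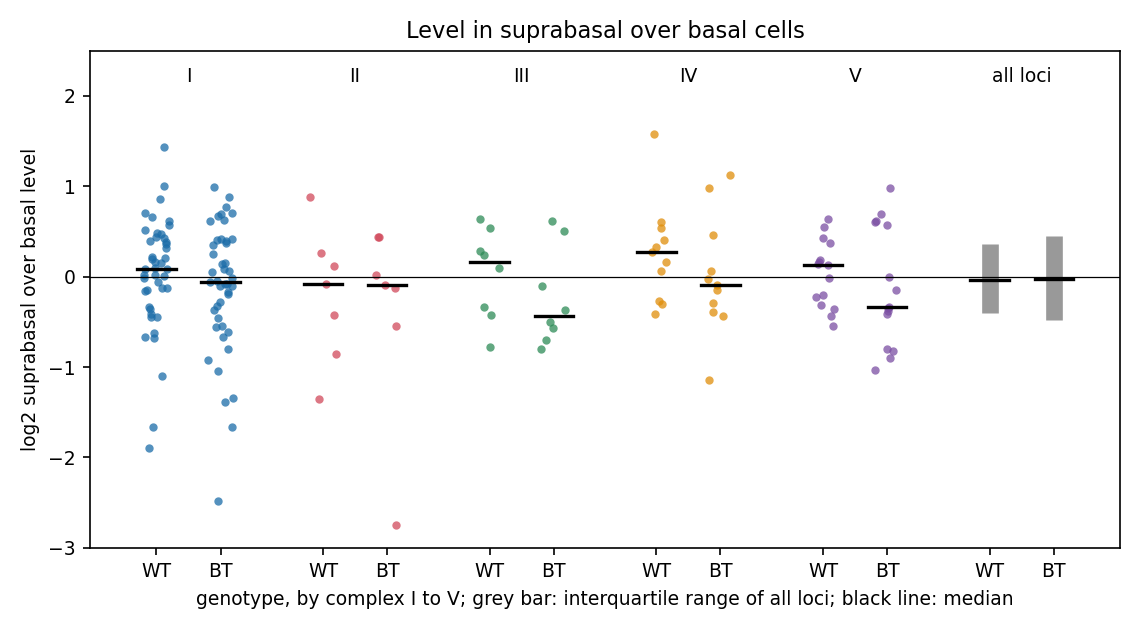
Log2 ratio of the suprabasal over the basal level for each member in wild type (WT) and bitransgenic (BT) cells by complex; black lines are medians over loci and the grey bars give the interquartile range of all loci. The median lies above 0 in wild type and below 0 in bitransgenic cells for complexes I, III, IV and V.

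Among forms of the same subunit, those known from muscle had no locus among the 85: of 97 protein-coding GENCODE genes that the name rule takes, 14 are not analysed here, among them Cox6a2, Cox7a1 and Cox8b, and also Cox4i1, Cox4i2 and Atp5g2. The c subunit of ATP synthase, the proton-carrying ring, is encoded by 3 genes whose mature protein is the same, and 2 of them were measured. Atp5g3 had 519.9 and 529 FPKM in wild type and bitransgenic basal cells and 446 and 284 in suprabasal cells (-0.65 ± 0.34, the authors' p = 0.0592, q = 0.569). Atp5g1 had 83.0 and 83.2 FPKM in basal and 61.6 and 62.3 in suprabasal cells (0.02 ± 0.44). Cox7a2 had 315 and 335 FPKM in basal and 256 and 248 in suprabasal cells, and Cox7a2l, a relative that takes part in respiratory supercomplexes, had 65.2 and 50.02 in basal and 49.1 and 49.1 in suprabasal cells.

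The assembly factors had wider values. Their median was -0.04 in basal cells (5 of 9 below 0) and -0.60 in suprabasal cells (7 of 9 below 0), with a median SE of 0.81 and 0.75. In suprabasal cells Ndufaf5 had 7.26 and 2.92 FPKM (-1.31 ± 0.79), Ndufaf6 3.64 and 1.55 (-1.23 ± 0.75), Ndufaf3 7.77 and 3.76 (-1.05 ± 0.76) and Ndufaf1 9.27 and 4.89 (-0.92 ± 0.81). Ndufaf7 had the opposite sign, with 2.86 and 5.42 FPKM (0.92 ± 0.70). None of these passed, and 8 of the 9 assembly factors stood under 15 FPKM in wild type basal cells. Atp5sl, which carries the prefix of complex V and is grouped there but is a complex I assembly protein, had 6.85 and 4.39 FPKM in basal and 5.52 and 6.71 in suprabasal cells. Ndufaf2, the exception, overlaps Smim15 on the other strand.

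By annotated extent 27 members overlap another coding gene, 25 of them on the opposite strand, and their values could hold its reads. The kit is labelled as strand-specific, but the strand setting of the counting is not given in the sources used here. Members of merged loci share their value with the other genes named there: Ndufb2 with Adck2 had 119 and 44.3 FPKM in suprabasal cells (-1.43 ± 0.75, the authors' p = 0.058, q = 0.562) and 86.2 and 77.1 in basal cells, Ndufb8 with Gm20538 and Sec31b had 203 and 160.1 in basal cells, and Atp5o with Donson had 113 and 98.9. Sdhc has 2 loci with the same coordinates, of which 1 had 69.9 and 58.7 FPKM in basal cells and the other 8.15 and 4.6. The table gives no strand for them. In suprabasal cells the second had 3.20 and 0.686 FPKM (-2.22 ± 3.33), the lowest fold change of all members and the one with the largest SE. Annotated small RNA genes lie within 6 members: Atp5b, Atp5c1, Atp5o, Ndufa10, Ndufs1 and Ndufv2.

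Around the respiratory chain, 3 genes of the wider lists fell in basal cells at the authors' q, and none rose. Over all 11290 basal loci 157 passed lower and 29 higher, 1.65% in all, so nothing is read from 3 calls spread over these lists. Idh2, the mitochondrial isocitrate dehydrogenase that makes NADPH, fell from 52.9 to 25.9 FPKM (-1.03 ± 0.31, q = 0.0371). Nnt, the transhydrogenase of the inner membrane that makes NADPH from the proton gradient, fell from 24.3 to 11.8 FPKM (-1.04 ± 0.34, q = 0.0371). Adck3, a kinase-like protein needed for coenzyme Q, fell from 2.40 to 0.509 FPKM (-2.24 ± 0.72, q = 0.0371). Once p was readjusted over the listed loci by the Benjamini-Hochberg method, these genes had an adjusted p of 0.0941, 0.169 and 0.155, so these calls hold only at the authors' own q. In suprabasal cells Idh2 had 65.7 and 65.8 FPKM, Nnt 11.2 and 7.57 and Adck3 6.48 and 5.95, and none of the 3 passed.

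By list, 1 of 24 loci of the tricarboxylic acid cycle and pyruvate dehydrogenase fell in basal cells (Idh2) and none of 23 in suprabasal cells, with medians of 0.16 and 0.00. Citrate synthase, Cs, had 89.4 and 121 FPKM in basal cells. Of 10 mitochondrial antioxidant loci 1 fell in basal cells (Nnt) and none changed in suprabasal cells, with medians of -0.13 and -0.30, and of 11 coenzyme Q loci 1 fell in basal cells (Adck3) and none changed in suprabasal cells, with medians of -0.32 and -0.24. None passed among 37 and 35 assembly factors outside the rule (medians -0.28 and -0.34), 32 import, carrier and chaperone loci (medians 0.05 and -0.10) or 17 and 18 glycolysis loci (medians 0.17 and 0.15). The glucose transporter Slc2a1 had 108 and 73.0 FPKM in basal cells (-0.57 ± 0.26, the authors' p = 0.0318, q = 0.285). None of 5 measured loci for cytochrome c and subunits outside the rule passed; Cyc1, the cytochrome c1 of complex III, had 41.1 and 42.6 FPKM in basal cells, and Atpif1, an inhibitor of ATP synthase, 1003 and 837. No mitochondrially encoded subunit had a locus of status OK, so the match of nuclear with mitochondrial transcripts is not analysed here.

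Of the regulators of mitochondrial biogenesis, 15 loci were measured in basal and 17 in suprabasal cells, and none passed at the authors' q. Ppargc1a, the coactivator PGC-1alpha known to activate many respiratory genes, had 2.54 and 10.8 FPKM in wild type and bitransgenic suprabasal cells (2.09 ± 0.67, the authors' p = 0.00175, q = 0.141) and no locus of status OK in the basal table. Its relative Ppargc1b had 9.73 and 5.69 FPKM in basal cells (-0.77 ± 0.40, q = 0.394) and 11.8 and 7.40 in suprabasal cells. The transcription factors Nrf1 and Gabpa, which bind promoters of respiratory genes, had 15.4 and 16.6 FPKM and 50.1 and 47.8 FPKM in basal cells. Tfam, which packages mitochondrial DNA, had 31.0 and 31.3 FPKM.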

How the data were processed

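RNA from sorted basal and suprabasal keratinocytes was sequenced in 10 samples (3 wild type and 2 bitransgenic per layer). Per the submitters' processing notes TopHat, Cufflinks and mm10 were used, with versions and library scaling not given in the sources used here. Per the file headers each table has the form of a Cuffdiff gene table, in which the authors give 1 value per group, read here as FPKM. The unit is inferred from that form. The authors' deposited log2 fold change differed from the log2 ratio of the levels by at most 4.13e-05. The authors' p-value (at least 5e-05) and q-value were used as deposited, and the authors' test statistic, a score, served only for an alternative SE. Its median ratio to the normal quantile of p was 0.631 for the basal and 0.628 for the suprabasal table.

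The SE was computed as the size of the log2 fold change divided by the two-sided normal quantile that belongs to its p-value. The layer difference was a two-sided Wald z-test, adjusted by the Benjamini-Hochberg method over all loci. Its calculation was checked on simulated data with normal errors and independent layers, which does not show that these settings hold for the real data. The layers enter it as independent groups, but 4 title stems occur in both. Loci were joined across the tables by their identifier, and 26 loci per table with the status HIDATA were left out. Overlaps came from GENCODE M21 on GRCm38 and use the annotated gene extent, and copies come from blastn 2.17.0 of coding sequences. Named genes were the members with p under 0.05, the 3 highest and 3 lowest fold changes per layer at 5 FPKM or more, the extremes of level per complex and of layer ratio, merged loci, and subunits with a stated role. Other genes stand for their list. Members and lists were chosen with earlier results of these data known. Python 3.11.15, pandas 2.3.3 and scipy 1.17.1 were used. Alternatives were pseudocounts of 1 and 5 FPKM, filters at 5 and 20 FPKM, centring, readjustment, a q of 0.10, and leaving out merged loci, assembly factors or overlapped members.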

Additional observations from a re-analysis of the deposited data

How the results depend on the processing

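The count of 0 called members held in each layer under readjustment, centring, a q under 0.10, a filter at 5 FPKM, and without merged loci or assembly factors. Centring each fold change on the median of loci with at least 1 FPKM (-0.11 in basal and -0.08 in suprabasal cells) moved the basal median of the members from -0.03 to 0.085 and the suprabasal one from -0.11 to -0.03. Centring also took the members below 0 from 46 to 35 in basal and from 51 to 43 in suprabasal cells. The members lower at the authors' p under 0.05 went with centring from 1 to 0 in basal and from 7 to 4 in suprabasal cells, and in basal cells to 0 without members that overlap another coding gene. The matching shares of all loci after centring are not given here. The alternative settings of the counts at p under 0.05 and the interval count with the test-statistic SE were chosen after seeing the data. Intervals within 1 fell from 48 to 10 members in basal and from 27 to 0 in suprabasal cells with that SE. No paired analysis was possible because each group enters as 1 pooled value, so a replicate block and leaving out single samples were not run. Precision was lowest for the assembly factors, most of which have low levels: their median SE in basal cells was 0.81, against 0.36 for all members. The part of sequencing depth in this was not tested.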
